A study of Mus musculus with 2 samples.

Results

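Chemokines are small secreted proteins that steer the movement of cells, above all of leukocytes. They are grouped by the spacing of their leading cysteines into CC ligands (Ccl genes) and CXC ligands (Cxcl genes). Most signal through receptors coupled to inhibitory G proteins (Ccr and Cxcr genes), while atypical receptors bind and take up chemokines without that signal and so shape their local level. In developing organs some of these genes act outside immunity: Cxcl12 and its receptors guide progenitor cells, vessels and neurons.

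The genes described here were those on the array whose name begins with Ccl, Cxcl, Ccr, Cxcr or Ccrl and a digit, which gave 55 of 31869 genes. They were 22 CC ligands, 13 CXC ligands, 17 receptors and 3 atypical or related receptors, read by 67 probes. Each gene is given by its brightest probe, the one with the highest mean processed signal. Current symbols are used for 2 of them: Ackr3 stands on the array as Cxcr7 and Ackr4 as Ccrl1.

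RNA came from ureters, the muscular tubes that carry urine from kidney to bladder, of NMRI mouse embryos at E18.5. RNA of Tbx2/Tbx3cDKO embryos, which joined Tbx18(cre/+) with Tbx2(fl/fl) and Tbx3(fl/fl), was set against RNA of control embryos, which were Tbx18(+/+) with Tbx2(fl/?) and Tbx3(fl/?). Both arrays carried cDKO RNA and control RNA in different dyes: replicate 1 was male with cDKO RNA in AlexaFluor647 (red), and replicate 2 was female with cDKO RNA in AlexaFluor555 (green). The comparison asked which transcripts were deregulated in cDKO ureters. Cre was carried at the Tbx18 locus, a gene of the ureteric mesenchyme, so every cDKO embryo also had the Cre allele that controls lacked. The number of embryos behind each RNA is not in the labels. The p-values therefore measure only the spread between these 2 arrays, as a variance mostly pooled over probes. On these arrays sex, dye orientation and replicate number cannot be told apart.

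Between 72.1% and 81.6% of the 43020 gene spots per channel were well above background. Neither targeted transcript was lower in RNA with the cDKO label: Tbx2 had a mean log2 ratio of 0.74 (limma, adjusted p = 0.0273) and Tbx3 of 0.66 (limma, adjusted p = 0.0305). Which exons the floxed alleles flank is not in the labels, and a probe beyond them checks nothing, so directions below are those of the RNA labelled cDKO. In the female cDKO RNA processed signals of the Y-linked Ddx3y and Eif2s3y were 359.6 and 491, and neither was well above background in the female control RNA. In male cDKO and male control RNA, Ddx3y stood at 2851 and 4236, and Eif2s3y at 5159 and 6739. The source of the Y-linked signal in the RNA labelled female cDKO was not tested. Defining genes of the ureter were present, as 12 of 12 urothelial and 10 of 10 smooth muscle markers were measured. In tissue RNA, fewer cells of a type and less RNA per cell cannot be told apart.

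Probe identity bears on 2 findings and is shown first. The probes of Ccl21a and Ccl21b, genes that encode nearly identical ligands of Ccr7, share a run of 43 bases, whose part within the leading 30 bases of each probe is in capitals.
Ccl21a: ttCCCTTGTCCTTGCACCTATGATTTATAC
Ccl21b: gccctcCCCTTGTCCTTGCACCTATGATTT
These probes may read each other's transcripts, so that values of Ccl21a and Ccl21b are uncertain as those of single genes. The brightest Cxcl11 probe is shown from base 20 to base 49, with 20 bases in capitals that also stand in promoters of other genes.
Cxcl11: agccaGGGCTACACAGAGAAACCCTatctt
These 20 bases were found in 15 RefSeq promoters, and any 20-base run of the probe in promoters of 21 other genes, out of 27025 genes with a promoter. Of all 39429 gene probes, 0.522% shared a run of that length with as many genes. Whether the Cxcl11 signal includes other transcripts was not tested, and a dimmer Cxcl11 probe without such a match is given beside it below. Cxcl12 was read by 2 probes 6201 bases apart, which do not overlap on mm9; the leading 30 bases of each are shown.
Cxcl12, brighter probe: aggagaaggcagcttcctatatgcagcgtg
Cxcl12, dimmer probe: gctgtaaacctcctaccgtatgtgggaatt

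Among the 55 genes, 36 were well above background in all 4 RNAs, 9 in some of them and 10 in none. The 39 genes that were well above background in at least 1 genotype on both arrays were tested. Each log2 ratio is cDKO over control after normexp background correction and loess, given as the mean ± SD of both arrays (n = 2), and a gene is called when its limma adjusted p over all probes is below 0.05. Of the 39 tested genes 11 were called, 5 higher and 6 lower in cDKO, against 4.45% of all 23418 tested genes (2.18% higher and 2.26% lower). An unadjusted p under 0.05 was reached by 16 of the 39, and by 3751 of the 23418. The genes that rose were the CXC ligands Cxcl14, Cxcl5 and Cxcl12 and the atypical receptors Ackr4 and Ackr3. Those that fell were the CC ligands Ccl21a, Ccl6, Ccl11 and Ccl21b, the CXC ligand Cxcl13 and the receptor Ccr6. As their probes share a run of bases, Ccl21a and Ccl21b may not be separate measurements, here and in the counts below. The median log2 ratio of the tested members was -0.16, against 0.0045 over all tested genes.

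**Figure D1:**
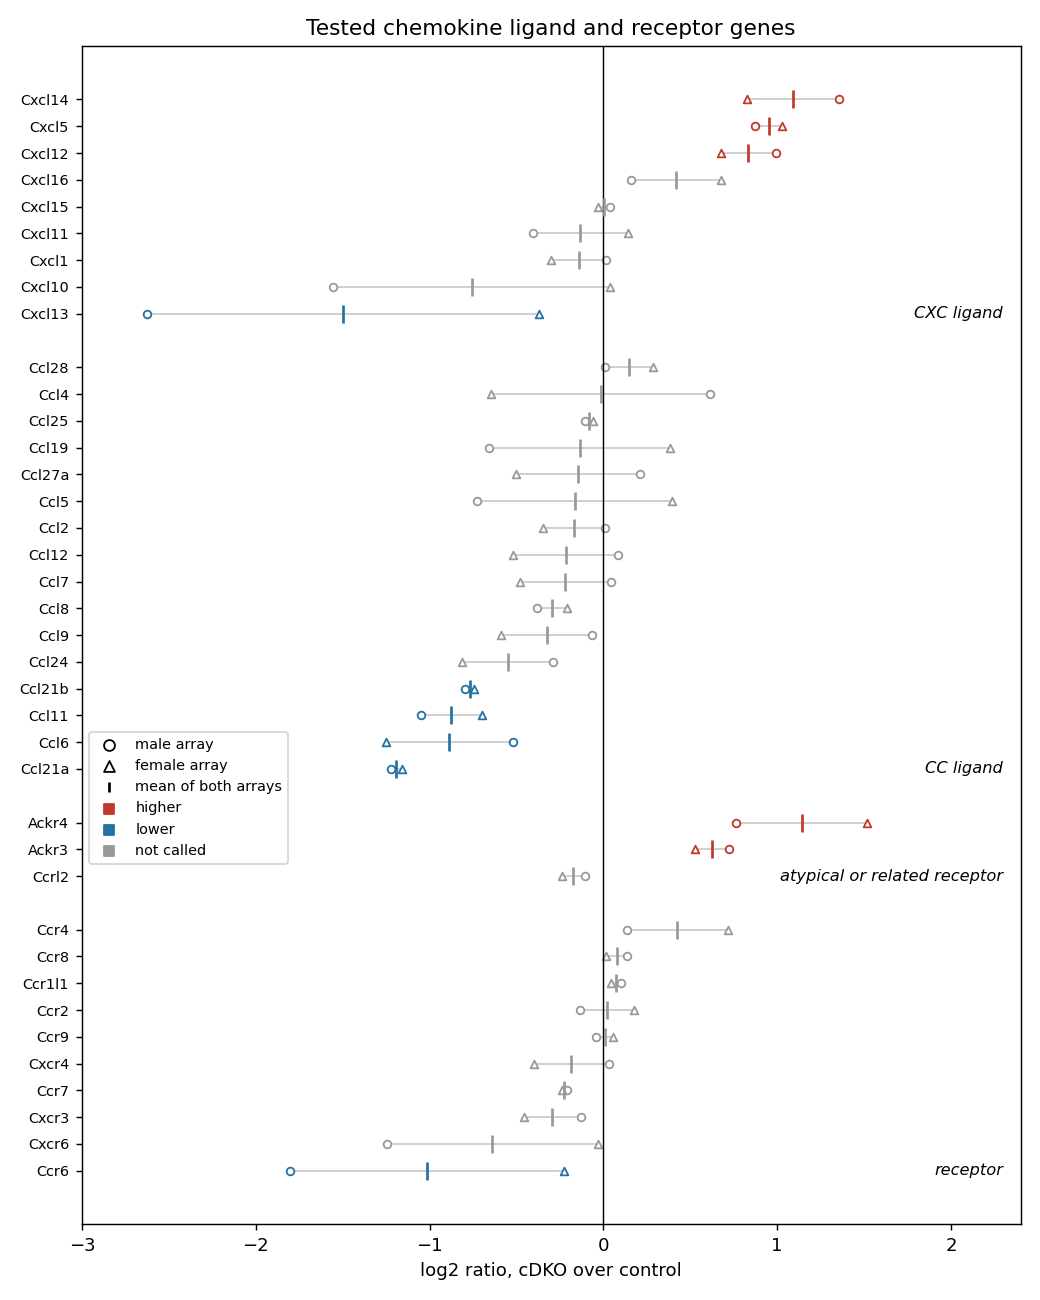
Log2 ratio of cDKO over control (horizontal axis) for 38 of the 39 tested genes, grouped by role, with an open circle for the male array, an open triangle for the female array and a bar for their mean; red genes were called higher, blue genes lower and grey genes neither. All 4 called CC ligands lie left of 0 on both arrays, and both called atypical receptors lie right of 0 on both arrays.

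By role, 0 CC ligands were called higher and 4 lower of 16 tested, and 3 CXC ligands higher and 1 lower of 9. Among receptors 0 were called higher and 1 lower of 11, and among atypical or related receptors 2 higher and 0 lower of 3. By a rule of size without a test, 0 of the 39 genes were at least 2-fold higher on both arrays (background 0.41%) and 1, Ccl21a, was at least 2-fold lower (background 0.726%). At least 1.5-fold on both arrays, 4 were higher, namely Ackr4, Cxcl12, Cxcl14 and Cxcl5 (background 1.49%), and 3 were lower, namely Ccl11, Ccl21a and Ccl21b (background 1.72%). Taken singly, the male array had 6 members at least 1.5-fold higher (background 6.68%) and 9 lower (background 5.12%), and the female array 6 higher (background 3.34%) and 7 lower (background 3.15%). The calls depended on the normalization: with the processed signals Cxcl5 was the 1 gene called higher and Ccl21a the 1 called lower, and under median centring without loess these were Ackr4 and Cxcl13. The deposited value table gave 0 calls by limma among the members, with 11 of them at an unadjusted p under 0.05. No called gene changed direction under any setting tried.

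**Figure D2:**
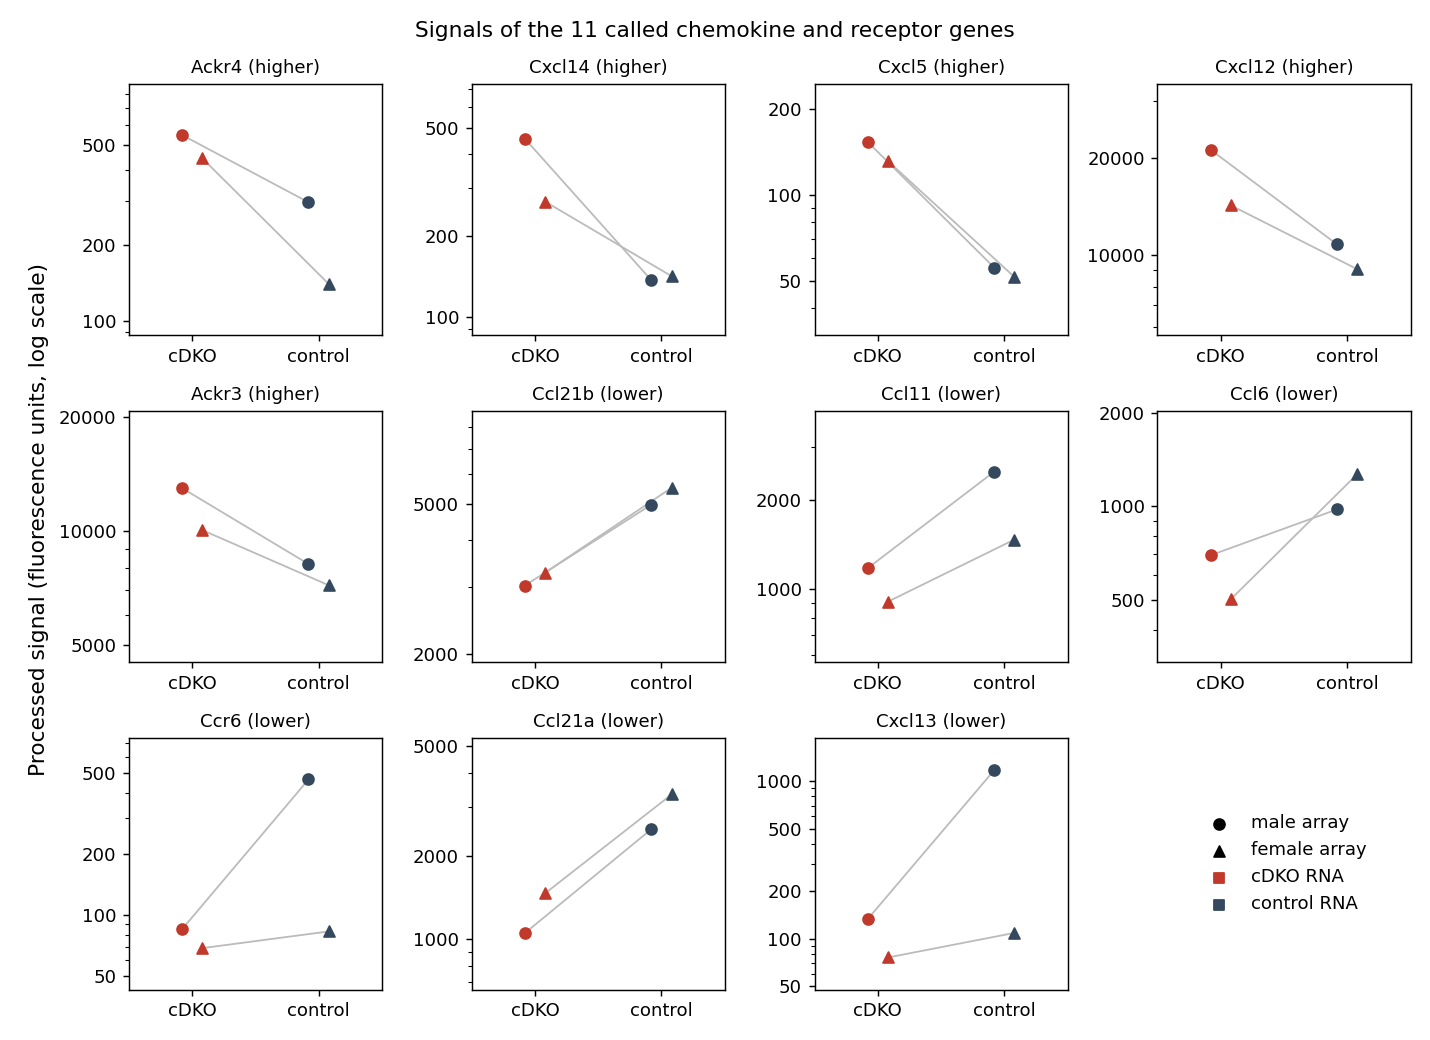
Processed signals (fluorescence units, log scale) of the 11 called genes, with cDKO RNA on the left and control RNA on the right; circles are the male array, triangles the female array, and grey lines join the RNAs of an array. Cxcl13 and Ccr6 stand out in the male control RNA, at 1175 and 463.9. In the other genes shown both cDKO values lie on the same side of both control values, as they do in some uncalled members.

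Cxcl12, the ligand of Cxcr4 and Ackr3, draws and retains progenitor cells and leukocytes, and its signal rose in cDKO ureters. Its brighter probe lies on mm9 chromosome 6, 117131227 to 117131286. Cxcl12 had processed signals of 21191 in male cDKO and 14262 in female cDKO ureters, against 10802 in male control and 9054 in female control ureters. Both cDKO values lie above both control values. Such a separation, here and below, was also seen in uncalled members such as Ccl8, Ccl9, Ccr7 and Cxcr3. It was not counted over all tested genes, so it sets no called gene apart. The log2 ratio was 0.83 ± 0.22 (SD, n = 2; limma adjusted p = 0.00765), a 1.78-fold rise. The dimmer Cxcl12 probe went the same way on both arrays, with log2 ratios of 0.57 for males and 0.35 for females, and was not called (0.46 ± 0.16, SD, n = 2; limma adjusted p = 0.163). With the mean of its probes Cxcl12 had a log2 ratio of 0.65 and was called.

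Ackr3, the atypical receptor that takes up Cxcl12 and Cxcl11, had signals of 13012 in male cDKO and 10075 in female cDKO ureters, against 8193 in male control and 7201 in female control ureters. Its values did not overlap between genotypes. Ackr3 rose by a log2 ratio of 0.62 ± 0.14 (SD, n = 2; limma adjusted p = 0.0435). That call was lost with normexp offset 0 (adjusted p = 0.0799) and without a filter on dim probes (adjusted p = 0.0605), as well as with the processed signals, median centring and the deposited value table.

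Cxcr4, the signalling receptor of Cxcl12, was not called. Its signals were 210.3 in male cDKO and 164.1 in female cDKO ureters, against 203.8 in male control and 228.3 in female control ureters, so that the groups overlap. The log2 ratio was -0.18 ± 0.31 (SD, n = 2; limma adjusted p = 0.707), made of 0.032 for males and -0.40 for females.

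Cxcl14, a chemokine made by epithelia and mesenchyme that attracts monocytes and dendritic cells, had signals of 457.3 in male cDKO and 267.4 in female cDKO ureters, against 136.6 in male control and 141.4 in female control ureters. Both cDKO values lie well above the controls, which were nearly equal. The log2 ratio was 1.09 ± 0.38 (SD, n = 2; limma adjusted p = 0.00139), a 2.13-fold rise. Cxcl5, a ligand of Cxcr2 that recruits neutrophils, had signals of 152.9 in male cDKO and 131 in female cDKO ureters, against 55.5 in male control and 51.4 in female control ureters. Its arrays differed little: the log2 ratio was 0.95 ± 0.11 (SD, n = 2; limma adjusted p = 0.00234). Its receptor Cxcr2 and the related Cxcr1 were not well above background in any RNA. Cxcl16, a membrane-bound ligand of Cxcr6, had signals of 1429 in male cDKO and 1139.8 in female cDKO ureters, against 1196 in male control and 718.5 in female control ureters. Its groups overlap across the arrays, while within each array cDKO was higher, with log2 ratios of 0.16 for males and 0.68 for females. It was not called (log2 ratio 0.42 ± 0.37, SD, n = 2; limma adjusted p = 0.254).

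Beside these rises, 7 of 8 fibroblast and adventitia markers were called higher, with a list median of 0.91. The summed signals of that list were 468709 to 537974 in cDKO ureters and 234048 to 264063 in control ureters. Of smooth muscle markers 9 of 10 were called lower (median -2.41), with sums of 71906 to 116820 in cDKO and 372222 to 611413 in control ureters. Of kidney and nephron markers 7 of 9 tested were called higher (median 1.35). Their sums were 15823 in male cDKO against 6216 in male control ureters, and 7824 in female cDKO against 7063 in female control ureters. No smooth muscle or fibroblast marker was below background in all RNAs. The part of these cell types in the chemokine values was not tested.

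**Figure D3:**
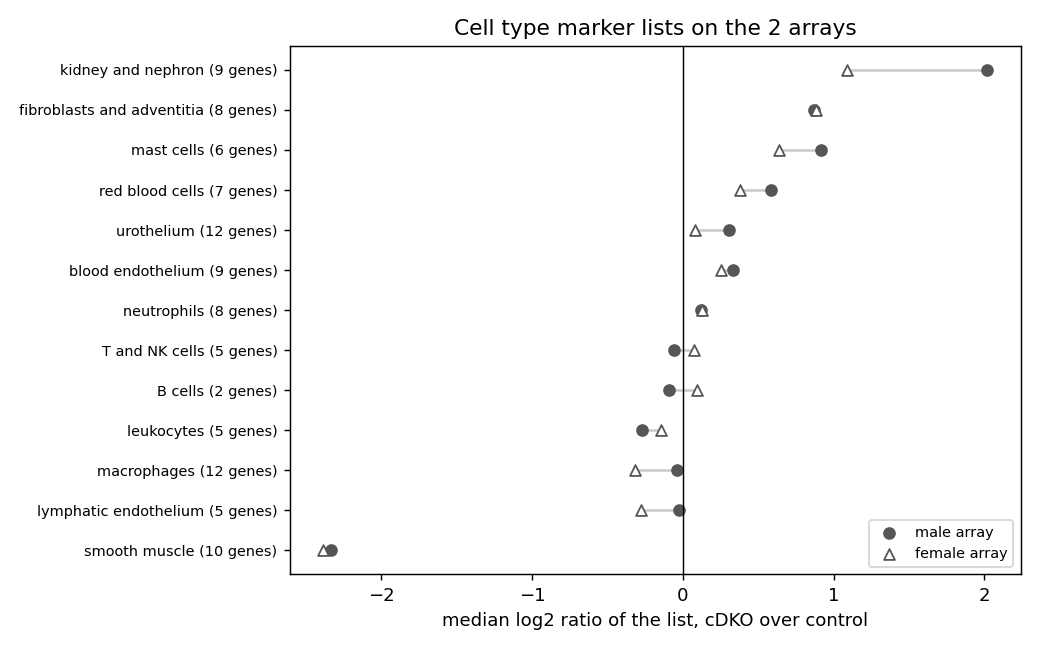
Median log2 ratio of cDKO over control of each cell type marker list (horizontal axis), with filled circles for the male and open triangles for the female array; the number of tested genes is given beside each list. Smooth muscle lies at -2.34 for males and -2.38 for females, and kidney and nephron and fibroblast markers lie above 0. General leukocyte, macrophage and lymphatic endothelium markers lie slightly below 0 on both arrays.

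Promoter letters are shown for Cxcl12, its atypical receptor Ackr3 and Cxcl14, which were called higher. Not shown are Ackr4 and Cxcl5, also called higher, and Cxcr4, which was not called. Whether the genes that rose share a cause was not tested. Each run holds the 250 bases before the RefSeq start on GRCm38.p6, on the gene's strand; capitals mark a match to the GAS element, the site of STAT factors, searched as TTCNNNGAA on both strands.
Cxcl12, chr6:117168285-117168534, plus strand: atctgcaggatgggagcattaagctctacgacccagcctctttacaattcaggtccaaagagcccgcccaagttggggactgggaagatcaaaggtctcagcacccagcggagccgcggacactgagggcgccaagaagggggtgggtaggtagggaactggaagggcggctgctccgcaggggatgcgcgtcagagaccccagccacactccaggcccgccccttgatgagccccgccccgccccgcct
Ackr3, chr1:90203730-90203979, plus strand: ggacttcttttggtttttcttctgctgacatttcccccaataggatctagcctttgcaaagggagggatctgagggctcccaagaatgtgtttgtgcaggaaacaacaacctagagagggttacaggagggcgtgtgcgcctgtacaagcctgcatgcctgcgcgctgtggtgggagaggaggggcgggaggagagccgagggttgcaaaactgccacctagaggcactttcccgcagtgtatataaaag
Cxcl14, chr13:56296552-56296801, minus strand: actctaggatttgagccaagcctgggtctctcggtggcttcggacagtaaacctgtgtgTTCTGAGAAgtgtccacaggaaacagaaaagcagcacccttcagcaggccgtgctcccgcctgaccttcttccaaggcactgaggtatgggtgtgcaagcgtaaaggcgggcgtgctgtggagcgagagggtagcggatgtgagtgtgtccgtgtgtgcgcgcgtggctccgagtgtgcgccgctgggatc
In windows of 300 bases that reach 50 bases past the start, GAS matches were found in 8.30% of 32851 RefSeq promoters and in 4 of the 46 promoters of 40 member genes, Cxcl14 and Ccr6 among the called genes. The T-box half-site GGTGTGA, searched on both strands, stood in 3.98% of all promoters and in 3 of the 46, those of Ccl20 and Ccrl2, and in none of the called genes with a promoter in the table. The NF-kappaB consensus stood in 4.51% of all promoters and in 10 of the 46, Ccr6 alone among the called genes. The called genes Ccl11 and Cxcl5 had no promoter among those searched, so none of these motif counts covers them. No match says only that these letters are not in the window.

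Ccl21a and Ccl21b belong with Ccl19 to the ligands of Ccr7, which lead dendritic cells and lymphocytes along lymphatic vessels, and Ackr4 is the atypical receptor that clears them. The Ccl21 signals fell in cDKO ureters and that of Ackr4 rose, and a link between these transcript changes was not tested. Ccl21a, on mm9 chromosome 4 at 42232117 to 42232176, had signals of 1051 in male cDKO and 1464 in female cDKO ureters, against 2497 in male control and 3333 in female control ureters. Both arrays gave nearly the same ratio: the log2 ratio was -1.19 ± 0.047 (SD, n = 2; limma adjusted p = 0.000292), a 2.28-fold lower level. Ccl21b, at 41775274 to 41775333 on the same chromosome, had signals of 3036 in male cDKO and 3284 in female cDKO ureters, against 4978 in male control and 5516 in female control ureters. It was lower by a similar step on both arrays, with a log2 ratio of -0.77 ± 0.036 (SD, n = 2; limma adjusted p = 0.0108).

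Ackr4, on mm9 chromosome 9 at 104000864 to 104000923, had signals of 548.8 in male cDKO and 443.7 in female cDKO ureters, against 296.4 in male control and 140.3 in female control ureters. The groups do not overlap, and the rise was steeper on the female array. The log2 ratio was 1.14 ± 0.54 (SD, n = 2; limma adjusted p = 0.00174). A second Ackr4 probe 236 bases away was also called, with a log2 ratio of 0.80 ± 0.082 (SD, n = 2; limma adjusted p = 0.0086).

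Ccl19 took opposite directions on the arrays. At its brightest probe the log2 ratio was -0.66 for males and 0.38 for females, and none of its 3 probes was called; the other two gave -0.71 and -1.20 on the male array, against 0.060 and 0.30 on the female array. Ccr7, the receptor of these ligands, was not called (log2 ratio -0.22 ± 0.017, SD, n = 2; limma adjusted p = 0.584). Lymphatic endothelium, a source of Ccl21, was read by 5 markers, of which 0 were called, with a median log2 ratio of -0.17. The summed signal of that list was 11247 in male cDKO against 11042 in male control ureters. In female ureters it was 7953 in cDKO and 9871 in control RNA. The defining markers Prox1, Lyve1 and Pdpn were all measured. Their part in the Ccl21 values was not tested.

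Most CC ligands lie in gene clusters, and on mm9 chromosome 11 the members between 81850650 and 81990227 were Ccl2, Ccl7, Ccl11, Ccl12, Ccl8 and Ccl1. Ccl11, eotaxin, attracts eosinophils through Ccr3. It had signals of 1177 in male cDKO and 909.1 in female cDKO ureters, against 2482 in male control and 1469 in female control ureters. Each cDKO value lies below both controls, and Ccl11 fell with a log2 ratio of -0.87 ± 0.25 (SD, n = 2; limma adjusted p = 0.00558). Its neighbours, which attract monocytes, were not called, with log2 ratios of -0.17 for Ccl2, -0.22 for Ccl7, -0.22 for Ccl12 and -0.30 for Ccl8. Ccl2 was printed 10 times on each array, and the SD of its log2 ratio between spots was 0.049 for the male and 0.051 for the female array. That spread is technical and does not measure variation between RNAs. Its array means were 0.0077 and -0.35. The eosinophil ligand Ccl24, on another chromosome, had a log2 ratio of -0.55 ± 0.37 (SD, n = 2) and was not called (limma adjusted p = 0.11).

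In the next cluster, at 83339296 to 83478111 of chromosome 11, stood Ccl5, Ccl9, Ccl6, Ccl3 and Ccl4. Ccl6, a myeloid chemokine of rodents, had signals of 695.3 in male cDKO and 501.3 in female cDKO ureters, against 978.2 in male control and 1272 in female control ureters. It fell by 0.89 ± 0.52 on the log2 scale (SD, n = 2; limma adjusted p = 0.0109), and the female array showed the larger step. Its neighbour Ccl9, a related myeloid ligand, had a log2 ratio of -0.32 and was not called. Ccl4, which attracts macrophages and T cells, split by array, at 0.62 for males and -0.64 for females around a mean of -0.014. Ccl5, which attracts T cells, was split the other way, -0.73 for males and 0.40 for females. Ccl3, an inflammatory chemokine of myeloid cells, was well above background in both male RNAs and in neither female RNA, and was not tested.

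The part of myeloid cells in these values was not tested. Of 12 macrophage markers 0 were called, with a median log2 ratio of -0.14, and below 0 were 7 of the 12 on the male array (median -0.041) and 11 of the 12 on the female array (median -0.32). Their summed signal was 43490 in male cDKO against 48314 in male control ureters, and 31393 in female cDKO against 38091 in female control ureters. Every one of the 12 was measured. Of 5 general leukocyte markers 0 were called (sums of 4049 to 6007 in cDKO and 4658 to 6232 in control ureters).

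The remaining CC ligands tested are known from epithelia. Ccl25, the thymic and gut ligand of Ccr9, had a log2 ratio of -0.082, Ccl28, a mucosal ligand of Ccr10, of 0.15, and Ccl27a, a skin ligand of Ccr10, of -0.15. None of these was called, and Ccl27a split by array, at 0.21 for males and -0.50 for females.

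A separate group of genes was high in 1 RNA, that of male controls. Cxcl13, the B cell attractant of lymphoid tissue, had signals of 133.4 in male cDKO and 76.1 in female cDKO ureters, against 1175 in male control and 109 in female control ureters. Ccr6, the receptor of Ccl20 found on lymphoid cells, had signals of 85 in male cDKO and 68.8 in female cDKO ureters, against 463.9 in male control and 83.1 in female control ureters. In both genes 3 RNAs lie close together and the male control stands apart.

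Cxcl13 was called, with a log2 ratio of -1.50 ± 1.59 (SD, n = 2; limma adjusted p = 0.0158), from -2.62 for males and -0.37 for females. Ccr6 was called with -1.01 ± 1.11 (SD, n = 2; limma adjusted p = 0.0377), from -1.80 for males and -0.23 for females. For both genes the SD exceeds the mean, and both calls rest on a variance pooled over probes: they were lost with robust eBayes (adjusted p = 0.76 for Cxcl13 and 0.693 for Ccr6) and without a filter on dim probes (0.116 for Cxcl13 and 0.154 for Ccr6).

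The same outlying RNA was seen in genes that were not called. Cxcl10, an interferon-induced ligand of Cxcr3, had signals of 46 in male cDKO and 51.3 in female cDKO ureters, against 263.9 in male control and 51.0 in female control ureters. Cxcr6, the Cxcl16 receptor on lymphocytes, had signals of 29.6 in male cDKO and 37.4 in female cDKO ureters, against 170 in male control and 39.5 in female control ureters. Ccl5 had signals of 81.8 in male cDKO and 75.8 in female cDKO ureters, against 176.6 in male control and 48.4 in female control ureters. Only the male control value stands out in these genes. Cxcl10 and Cxcr6 were called with an intensity trend alone (adjusted p = 0.0208 and 0.0203).

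Counted by a rule chosen after the values were seen, 5 of the 39 tested members had a male control signal at least 2 times that of every other RNA, namely Ccl5, Cxcl10, Cxcl13, Ccr6 and Cxcr6. That is 12.8%, against 0.611% of all tested genes, and for each of the other RNAs the count of members was 0. The background for those RNAs was 0.337% for male cDKO, 0.286% for female cDKO and 0.0683% for female control. The lymphotoxin genes Ltb and Lta, which drive lymphoid organ formation, were picked after the values were seen. Their signals were also highest in male control RNA. Ltb had 165.2 in male cDKO and 69.4 in female cDKO ureters, against 499.4 in male control and 68.7 in female control ureters. Lta had 37.2 in male cDKO and 29.0 in female cDKO ureters, against 171.1 in male control and 24.0 in female control ureters. Neither was called. Of 5 tested T and NK cell markers 0 were called, and of 6 B cell markers only Cd79b and Vpreb1 were tested, with 0 calls. For T and NK cells the summed signals were 2043 in male cDKO against 2103 in male control ureters. In female ureters they were 1554 in cDKO and 1536 in control RNA. For B cells they were 840.8 in male cDKO against 944.7 in male control ureters, and 582.7 against 566.5 in female ureters. Cd3d and Pax5 were not well above background in any RNA. Whether lymphoid tissue in the male control RNA has a part in this was not tested.

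**Figure D4:**
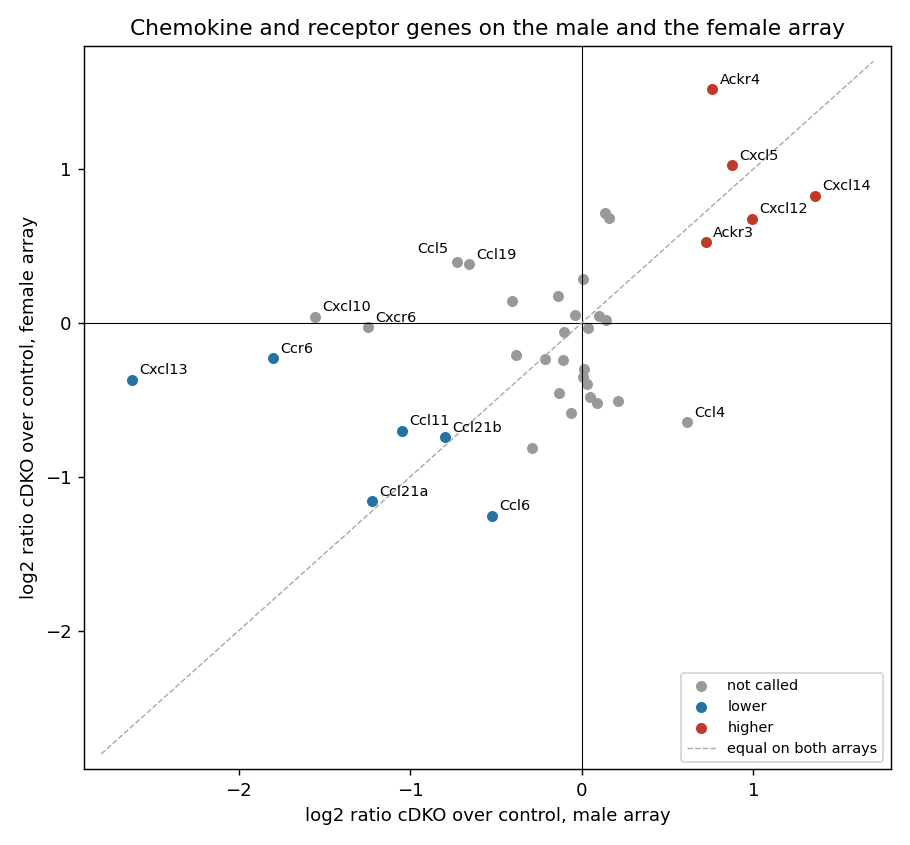
Log2 ratio of cDKO over control on the male array (horizontal) and the female array (vertical) for 38 of the 39 tested genes; red points were called higher, blue lower, grey not called, and the dashed line marks equal values. Cxcl13, Ccr6, Cxcl10 and Cxcr6 lie far left of the line, from -1.25 to -2.62 on the male and between -0.37 and 0.041 on the female array, while the Ccl21 genes, Cxcl5 and Ackr3 lie near it.

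Cxcl11 and Cxcl9 are, like Cxcl10, ligands of Cxcr3 induced by interferon. Cxcl11, at its bright probe with shared bases (mean processed signal 39263), had a log2 ratio of -0.13 ± 0.39 (SD, n = 2). At the dimmer probe, 73 bases away (mean processed signal 567), the log2 ratio was -0.12 ± 0.20 (SD, n = 2). The bright signal is thus uncertain as a level of Cxcl11. Cxcl9 was well above background in the green channel alone, that is in female cDKO and male control RNA, and was not tested. Its signals, given here after they were seen, were 23.1 in male cDKO and 24.0 in female cDKO ureters, against 59.8 in male control and 22.7 in female control ureters, so that the male control was again the highest. Their receptor Cxcr3 had a log2 ratio of -0.29 ± 0.23 (SD, n = 2) and was not called. Of 17 tested interferon response genes 0 were called, with a median of 0.0038. Cxcl1, a neutrophil ligand, had a log2 ratio of -0.14, and Cxcl15, a lung chemokine of mice, of 0.0034; neither was called.

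Among signalling receptors Ccr6 was the 1 gene called of 11 tested, with no receptor called higher. Ccr4, a receptor of T cells, had a log2 ratio of 0.43 ± 0.41 (SD, n = 2) and was not called. Ccr2, the receptor of Ccl2 on monocytes, stood at 0.019, Ccr8 at 0.078, Ccr9 at 0.0067 and Ccr1l1 at 0.073. Ccrl2, a receptor-like protein that binds chemerin, stood at -0.17.

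Below background in all 4 RNAs were Ccl1, Ccl20, Ccl22, Ccl26, Cxcl17, Cxcl2, Cxcl3, Ccr1, Cxcr1 and Cxcr2. Well above background in some RNAs but not tested were Ccl17, Ccl3, Cxcl9, Ccr10, Ccr3 and Cxcr5. Ccl17 was well above background in both male RNAs and in neither female RNA. Ccr3 was so in the green channel alone, as Cxcl9 was, and Ccr10 and Cxcr5 in male control RNA alone. For none of these is a difference given.

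Further genes of the chemokine pathway came from lists outside the naming rule. Of 11 tested genes of other chemokine families and binding partners 1 rose and 1 fell. Ppbp, a platelet CXC chemokine that binds Cxcr2, rose by 0.70 ± 0.28 (SD, n = 2; limma adjusted p = 0.0266), and Ptn, a heparin-binding growth factor, fell by 0.71 ± 0.19 on the log2 scale (SD, n = 2; limma adjusted p = 0.0207). The atypical receptor Ackr1 of vessels and red cells had a log2 ratio of 0.57 and was not called (limma adjusted p = 0.0671). Of 27 genes of receptor signalling 1, Rgs2, a brake on G protein signalling known from vascular smooth muscle, fell with -2.42 ± 0.15 (SD, n = 2; limma adjusted p = 1.74e-07). Of 19 tested genes of NF-kappaB and inflammatory cytokines 1, the adhesion molecule Vcam1, rose with 1.10 ± 0.72 (SD, n = 2; limma adjusted p = 0.00507).

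**Figure D5:**
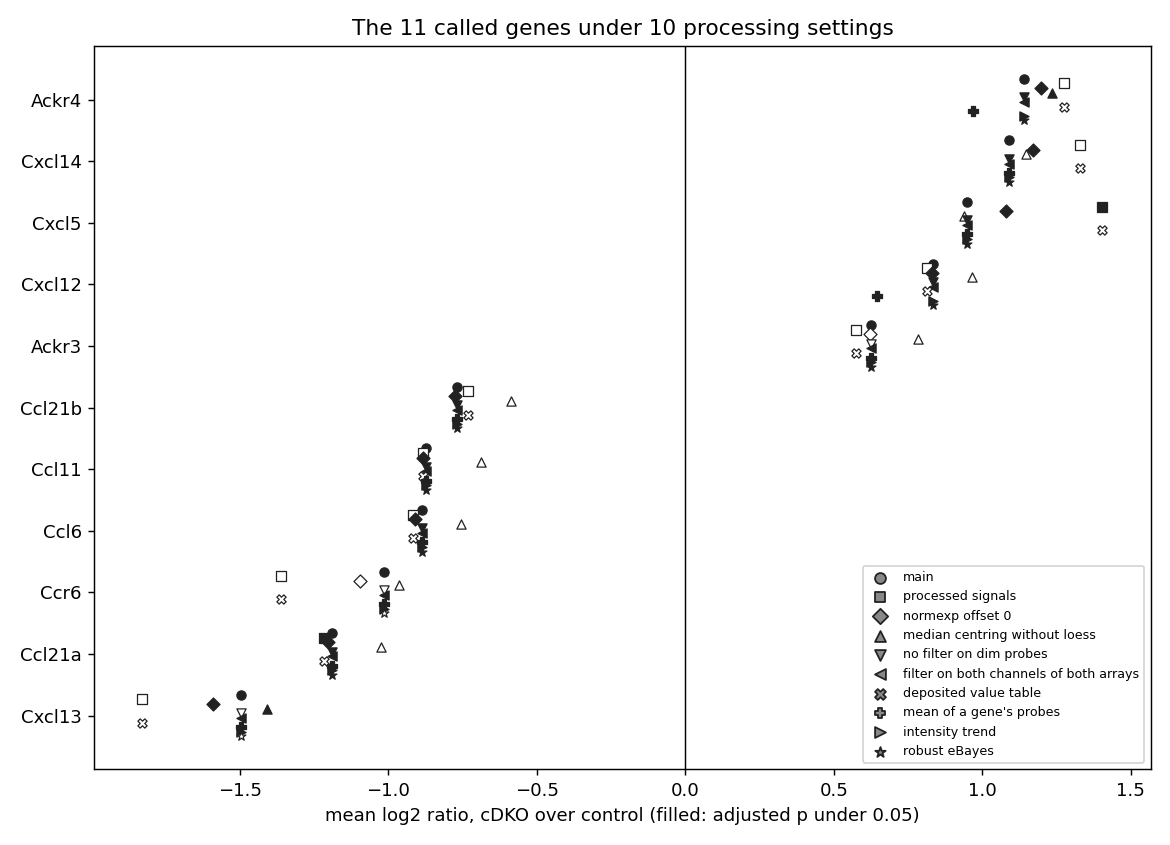
Mean log2 ratio of cDKO over control (horizontal axis) of the 11 called genes under the main setting and 9 others (Aquantile, which left all ratios as they were, is not drawn), each with its own marker, filled where the adjusted p was below 0.05. Every marker of a gene lies on its own side of 0, while the filled markers thin out under the processed signals, median centring and the deposited value table.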

How the data were processed

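Spot values of these 2-colour arrays of ureter RNA come from Agilent Feature Extraction 10.7.3.1, per the submitters' processing notes. Per the file headers, the files hold mean spot intensity, median background intensity and a processed signal intensity for each channel, and a deposited log10 ratio of red over green. Flags mark spots well above background or saturated. The deposited value table is a score of unstated scale; set against the scanner values, it was the signed fold change of cDKO over control with low signals set to 26.9 (replicate 1) or 20.4 (replicate 2). This held to 0.01 log2 in 100% of the 44397 values, with a median of 1 on both arrays. Probe coordinates are on mm9.

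Background correction was by normexp (offset 50) on mean intensities, followed by loess within arrays (limma 3.58.1, R 4.3.3), with control and outlier spots at weight 0 and spots of a probe averaged. Probes well above background in 1 genotype on both arrays were kept (29274). Symbols came from RefSeq for 26412 probes and from the files for 13017. Ratios were turned to cDKO over control and tested against 0 with lmFit and eBayes (two-sided, Benjamini-Hochberg, threshold 0.05, 1 residual and 13.9 prior degrees of freedom). Tests on simulated data (3 runs, 29274 probes) for this comparison recovered 91 to 100 of 100 probes changed 2-fold and 100 of 100 changed 4-fold. Of the calls 5.80% to 21.3% were false, above the 0.05 threshold in every run. The simulated noise was normal, drawn from the fitted variance, with the same shift on both arrays and no dye effect. Recovery therefore cannot show how the calls depend on normalization.

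Every member well above background in a genotype on both arrays is named with its ratio. Signals are given for called members, those at least 1.5-fold on both arrays, and Cxcl12, Cxcr4, Ackr3, Cxcl14 and Cxcl16. Of other lists up to 4 called genes are given. Signals of uncalled genes high in male control RNA, Ltb and Lta among them, were added after the values were seen. A tested member that the rule takes is not reported here. The members, lists and tests were chosen with earlier results of these data known. Alternatives were the processed signals, normexp offset 0, median centring, Aquantile, other filters, probe means per gene, the deposited value table, eBayes with an intensity trend or robust, other thresholds of fold and single arrays. Both arrays had the same scan date. With 2 arrays and 1 residual degree of freedom no block could be fitted.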

Additional observations from a re-analysis of the deposited data

Results flagged for a closer look

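On the single male and the single female array, 14 of the 39 tested members had log2 ratios of opposite sign, against 9427 of 23418 tested genes, that is 35.9% of members and 40.3% of genes. None of the 14 was called. The difference between the arrays was not tested, since each sex has 1 array and sex, dye orientation and replicate number cannot be told apart.

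Given as the male minus the female log2 ratio, those of the 14 higher on the male array were Ccl4 at 1.26, Ccl27a at 0.71, Ccl12 at 0.61, Ccl7 at 0.53, Cxcr4 at 0.43, Ccl2 at 0.36, Cxcl1 at 0.32 and Cxcl15 at 0.069. Those of the 14 lower on the male array were Cxcl10 at -1.59, Ccl5 at -1.12, Ccl19 at -1.04, Cxcl11 at -0.55, Ccr2 at -0.31 and Ccr9 at -0.095. Cxcl10 and Ccl5 are among the genes whose signal was highest in male control RNA, as described above.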

How the results depend on the processing

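Over all genes, 511 were called higher and 530 lower. With the processed signals these were 135 and 210, so that 39.1% of calls were higher against 49.1% in the fit reported. Under median centring they were 163 and 157, with the deposited values 0 and 0 (2435 genes at an unadjusted p under 0.05), and with an intensity trend 933 and 664. Among the members, the processed signals left 1 higher and 1 lower, median centring 1 and 1, and the table deposited by the authors 0 and 0. By the size rule at 2-fold on both arrays, the 0 higher members became 1 with the processed signals and 4 at 1.5-fold, and the 1 lower became 3 at 1.5-fold. On each array alone, alternatives chosen after seeing the data, 1 to 2 members were at least 2-fold higher and 2 to 6 lower. With 1 array no test could be fitted. Normexp offset 0 cost 2 of the 11 member calls, no filter 3 and robust eBayes 2, and the intensity trend added 2. Aquantile, the filter on both channels and the mean of a gene's probes changed no member call. Reversals touched uncalled members near 0: under median centring Ccl19 became 0.046, Ccl25 0.068, Ccl27a 0.056, Ccl4 0.084, Cxcl15 -0.14, Ccr1l1 -0.058, Ccr2 -0.030 and Ccr9 -0.12; with the processed signals Ccr2 became -0.16 and Ccr9 -0.0010; with the deposited table Ccr2 became -0.16 and Ccr9 -0.022. The cause of these changes was not tested. Each array's ratio already pairs cDKO and control RNA, so the test was paired by array and no further pairing was possible. Medians of signal over background were 12.1 to 17.0 per channel, which limits dim members.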

Other observations

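Of 6 tested mast cell markers 3 were called higher, all proteases of mast cell granules: Cpa3 with a log2 ratio of 1.34, Cma1 with 1.32 and Tpsb2 with 1.07. Cpa3 had processed signals of 4758 in male cDKO and 7115 in female cDKO ureters, against 1664 in male control and 3027 in female control ureters. Kit stood at 0.31, Mcpt4 at 0.41 and Fcer1a at 0.12, and none of these was called. Of 9 blood endothelium markers 2 rose, Plvap with 0.97 and Cdh5 with 0.68, and of 8 neutrophil markers 0 were called, with a median of 0.13. Red blood cell markers had 1 gene called higher of 7, Slc4a1 with 0.62, and a median of 0.50. None of the 7 was below 0 on either array, and their summed signals were 171097 to 211210 in cDKO and 122850 to 124761 in control ureters. Of 12 urothelial markers 0 were called, with a median of 0.18.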
